A study of Mus musculus with 18 samples.

Results

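The cyclins, Cdk1 and the Cdc25 phosphatases and Wee1-type kinases that switch Cdk1 on and off were followed in single mouse embryos at the 2-cell stage. The set holds 10 genes chosen by their symbol in the platform annotation: Ccna2, Ccnb1, Ccnb2, Ccne1, Cdk1, Cdc25a, Cdc25b, Cdc25c, Wee1 and Wee2. Of these, 9 were read by a probe set that names the gene alone, among 19935 genes read in this way. Ccnb1 is not named by the annotation table used here, so it has no value. Each of the other members had 1 probe set, so no choice between probe sets arose.

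The 18 embryos came from natural matings and were profiled singly, 1 embryo per Affymetrix Mouse Gene 1.0 ST array, its RNA having been amplified by NuGen's WT-Ovation One-Direct system. The 9 Parg(110)-/+ embryos had 3 Parg(110)-/- fathers (PargA, PargB and PargC), and the 9 WT embryos had 3 wild-type fathers (WT1, WT2 and WT3), with 3 embryos for each father and wild-type mothers throughout. All animals were on the 129SVE (129S6/SvEvTac) background. The product of Parg, poly(ADP-ribose) glycohydrolase, strips poly(ADP-ribose) from proteins, and the Parg(110) allele lacks exons 2 and 3 and with them the long isoform. Since the embryos of Parg(110)-/- fathers are heterozygous themselves, an effect of the father's sperm and one of the embryo's own genotype cannot be told apart here. An embryo is named by its father and a number, as in PargB-1. Values are log2 levels, in which a difference of 1 is a doubling, and the RNA of both blastomeres was read together, so that a lower level in 1 blastomere and in both cannot be told apart.

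Cdk1 is the kinase that drives entry into mitosis. It acts only when bound to a cyclin: B-type cyclins carry it through mitosis, cyclin A2 serves S phase and mitotic entry, and cyclin E1 pairs mainly with Cdk2 at the start of DNA replication. Wee1 and the oocyte kinase Wee2 hold Cdk1 back by phosphorylating it, whereas the Cdc25 phosphatases remove these phosphates. The 2-cell embryo carries transcripts left by the oocyte while its own genome is starting to be transcribed, so that levels at this stage can mix stored and new RNA.

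The arrays were similar in overall signal but not equal. The median difference between genotypes over all probe sets was 0.05 as deposited and -0.005 after setting the array medians equal. Correlations of log2 values between pairs of arrays lay between 0.924 and 0.958, and array medians lay between 6.44 and 6.53 in Parg(110)-/+ embryos and between 6.34 and 6.49 in WT embryos. Parg itself was read by 1 probe set, at 10.23 ± 0.48 in Parg(110)-/+ embryos and 10.54 ± 0.41 in WT embryos (SD, n = 9 each), a difference of -0.32 (limma, adjusted p = 0.571). Whether this probe set lies in the deleted exons is not given in the sources used here, so it does not check the labels. Of 16 oocyte genes, 15 lay above 6.46 on average, the level under which 95% of 1035 olfactory receptor probe sets stayed. Olfactory receptors are normally silent in embryos, so this level served as a working background. The paper, however, reports precocious expression of individual olfactory receptor genes in embryos of Parg(110)-/- fathers, and 2 of these probe sets averaged above 8 here. The means of all 9 measured cyclins and regulators also lay above 6.46. The median of all probe set means was 6.47, so at least as many probe sets passed this level as stayed under it. Passing it therefore does not by itself show that a gene was expressed.

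Between the genotypes, no member passed the test, with the threshold of an adjusted p under 0.1 taken from the methods of the study. Among all 28815 probe sets, 0 passed (0%), while 3018 had an unadjusted p under 0.05 in limma. Of the 9 members, 3 had such a p, and all 3 were lower in Parg(110)-/+ embryos: Cdk1, Cdc25a and Wee1. Among all probe sets, 1.51% were lower and 8.96% were higher at this level, and among the 14408 bright probe sets, those at or above the median of all probe set means, 2.51% were lower and 6.76% were higher. The median difference over the 9 members was 0.01, against 0.05 over all probe sets, with 5 members above 0 and 4 below. The background split by direction moved with the scaling of the arrays: 2583 probe sets were higher and 435 lower as deposited, against 823 higher and 969 lower after setting the array medians equal and 1229 higher and 591 lower once the values were quantile normalized again.

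With embryos as the unit, Cdk1 showed the smallest p of the members. Its lowest, median and highest levels were 10.51, 10.85 and 10.95 in Parg(110)-/+ embryos, against 10.79, 10.96 and 11.33 in WT embryos. All 9 Parg(110)-/+ embryos lay below the WT mean, 3 lay below the lowest WT embryo and 5 WT embryos lay above every Parg(110)-/+ embryo, but the groups overlapped. The difference was -0.26 with a standard error of 0.09 and a 95% interval of -0.44 to -0.08, or 0.837-fold, at an adjusted p of 0.371 and an unadjusted p of 0.00821. The family of PargB had the lowest mean, 10.66, beside 10.80 for PargA and 10.88 for PargC, against 11.18, 10.94 and 11.00 for WT1, WT2 and WT3. Without the 3 embryos of PargB the difference was -0.19, and without those of WT1 it was also -0.19, with unadjusted p-values of 0.0504 and 0.0566.

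The 250 bases upstream of the start of Cdk1 and Cdc25a are shown because both genes had an unadjusted p under 0.05 in limma. Those of Ccnb2 are shown as a further window with CCAAT and cell cycle homology letters, but without an E2F match. The genotype difference of Ccnb2 was 0.21 with an interval of -0.38 to 0.80, so its direction was open. Sequences are RefSeq's on GRCm38.p6, 5′ to 3′ on the strand of the gene. Capitals mark CCAAT or its other strand ATTGG, the letters bound by NF-Y; TTTGAA or TTCGAA, the cell cycle homology region; and TTTGGCGC, TTTCGCGC, TTTCCCGC or TTTGCCGC, the letters bound by E2F factors, on either strand.
Cdk1, chr10:69352913-69353162, minus strand: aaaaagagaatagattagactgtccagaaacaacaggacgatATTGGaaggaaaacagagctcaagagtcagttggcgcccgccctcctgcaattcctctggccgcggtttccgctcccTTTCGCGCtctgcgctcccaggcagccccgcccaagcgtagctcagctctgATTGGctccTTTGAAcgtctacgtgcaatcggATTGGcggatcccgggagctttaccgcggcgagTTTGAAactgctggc
Cdc25a, chr9:109875329-109875578, plus strand: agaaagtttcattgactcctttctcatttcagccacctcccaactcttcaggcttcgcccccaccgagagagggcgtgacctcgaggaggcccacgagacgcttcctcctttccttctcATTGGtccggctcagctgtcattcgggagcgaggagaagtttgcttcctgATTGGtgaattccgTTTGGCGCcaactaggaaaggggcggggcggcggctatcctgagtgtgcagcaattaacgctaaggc
Ccnb2, chr9:70421555-70421804, minus strand: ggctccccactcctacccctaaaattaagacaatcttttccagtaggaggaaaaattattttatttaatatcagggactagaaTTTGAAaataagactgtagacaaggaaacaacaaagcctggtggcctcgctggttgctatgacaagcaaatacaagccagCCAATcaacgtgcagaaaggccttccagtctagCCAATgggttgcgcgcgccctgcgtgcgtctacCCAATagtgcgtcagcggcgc

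The Cdk1 window held 3 CCAAT matches, 2 cell cycle homology matches and 1 E2F match, the last at -131 to -124 from the start. In Cdc25a there were 2 CCAAT matches and 1 E2F match, at -67 to -60, and in Ccnb2 there were 3 CCAAT matches and 1 cell cycle homology match. No 2 matches overlapped in these windows. Of 32851 RefSeq promoter windows of this length, 33.8% held CCAAT, 17.1% a cell cycle homology match and 1.86% an E2F match, so the E2F letters are the rarest of these. Promoter windows were used for 7 of the 10 genes (Ccnb1, Ccnb2, Ccne1, Cdk1, Cdc25a, Cdc25b and Wee2), and Ccna2, Cdc25c and Wee1 are named only. Windows of members on chromosome 18, where Cdc25c lies, were not used. Of the windows not shown, those of Ccnb1, Cdc25b and Wee2 held CCAAT matches only (2, 1 and 1), and that of Ccne1 held no match. A match describes letters in the window and not binding.

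**Figure D1:**
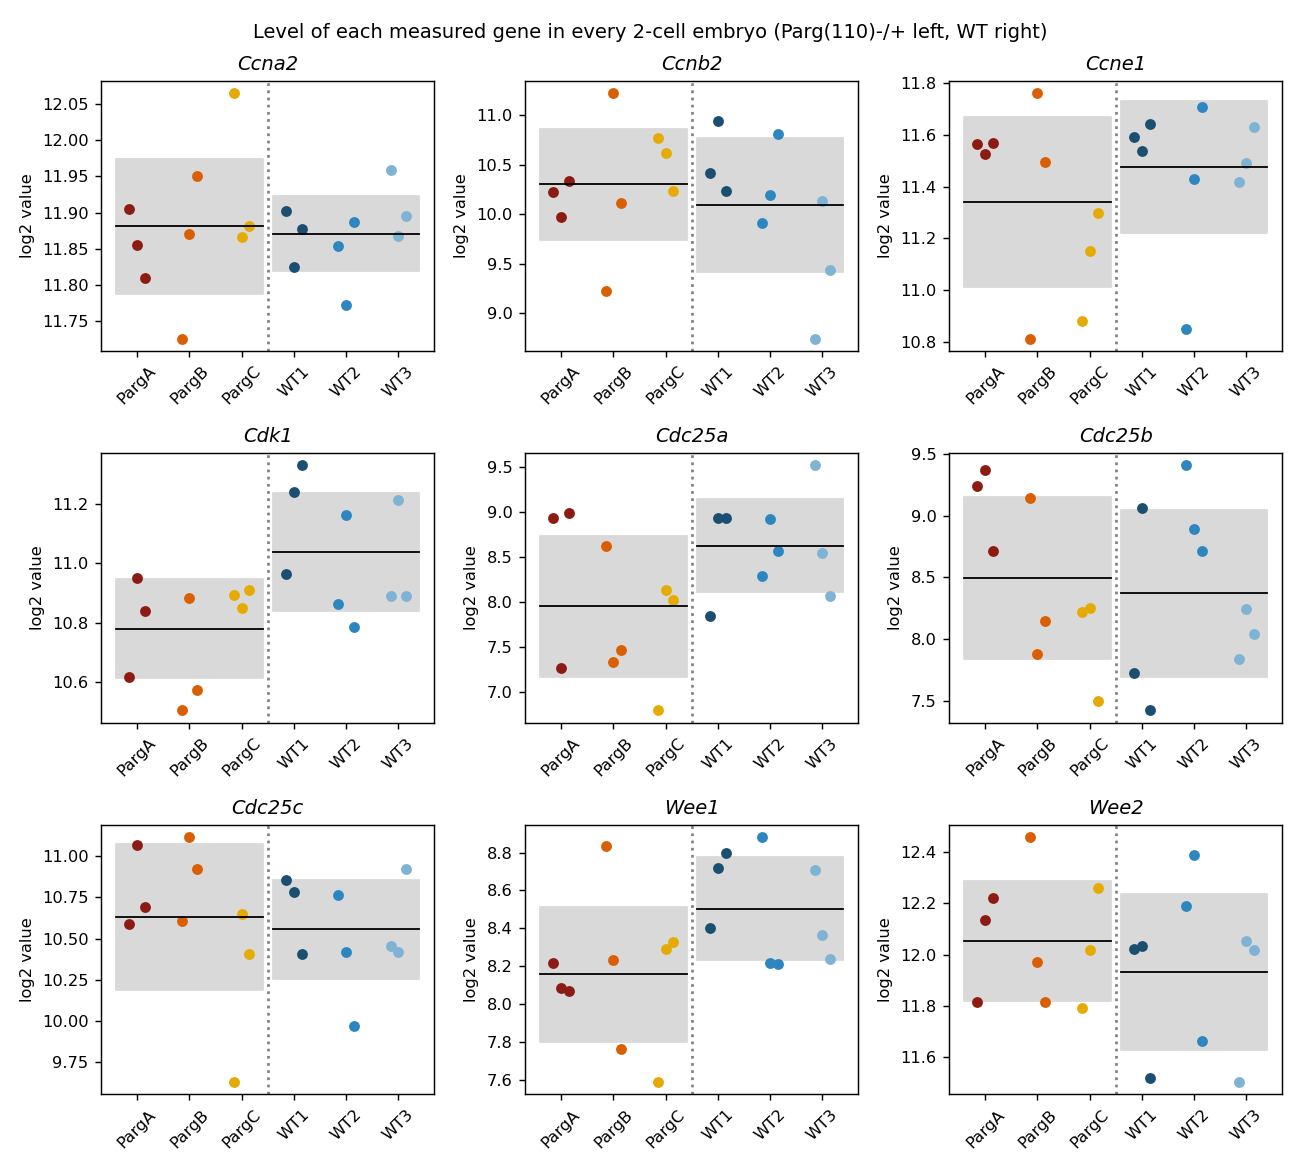
Log2 level of each of the 9 measured genes in every embryo, by father, with Parg(110)-/+ families on the left of each panel and WT families on the right; points are embryos, lines group means and grey bands 1 SD (n = 9 each). All 9 Parg(110)-/+ embryos lie below the WT mean for Cdk1, and the groups overlap for every gene.

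Of the cyclins, Ccna2 was almost flat. It ran at 11.73, 11.87 and 12.06 (lowest, median and highest) in Parg(110)-/+ embryos and 11.77, 11.88 and 11.96 in WT embryos, so that the whole range over 18 embryos was 1.26-fold. Only 3.01% of the 931 probe sets within 0.5 of its mean level had a smaller SD. Its genotype difference was 0.01 with a standard error of 0.04 and an interval of -0.08 to 0.10. This sign turned to -0.05 after setting the array medians equal.

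Ccnb2, a B-type cyclin, varied far more from embryo to embryo. Its lowest, median and highest levels were 9.22, 10.24 and 11.22 in Parg(110)-/+ embryos, against 8.74, 10.20 and 10.94 in WT embryos, a range of 5.58-fold over all of them. The lowest Parg(110)-/+ embryo (PargB-1) and the highest (PargB-2) had the same father. The genotype difference was 0.21 with a 95% interval of -0.38 to 0.80, which allows both a lower and a higher level.

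Ccne1, cyclin E1, ran at 10.81, 11.50 and 11.76 in Parg(110)-/+ embryos and at 10.85, 11.54 and 11.71 in WT embryos (lowest, median and highest). A few embryos were set below the rest: PargB-1 at 10.81 and PargC-1 at 10.88 in the Parg(110)-/+ group, and WT2-1 at 10.85 in the WT group. The difference of the group means was -0.14 with an interval of -0.42 to 0.15.

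Among the activating phosphatases, Cdc25a had lowest, median and highest levels of 6.80, 8.03 and 8.99 in Parg(110)-/+ embryos and 7.85, 8.57 and 9.52 in WT embryos. Below every WT embryo were 4 Parg(110)-/+ embryos (PargA-2, PargB-2, PargB-3 and PargC-1), while PargA-1, PargA-3 and PargB-1, at 8.94, 8.99 and 8.62, lay above the WT median. The difference was -0.67 with a standard error of 0.30 and an interval of -1.30 to -0.04, or 0.627-fold, with an adjusted p of 0.458 and an unadjusted p of 0.0374. The family means were 8.40 for PargA, 7.81 for PargB and 7.65 for PargC, against 8.57, 8.60 and 8.71 for WT1, WT2 and WT3. Without PargC-1 the difference was -0.53, at an unadjusted p of 0.0784.

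Cdc25b, the phosphatase needed for the resumption of meiosis in mouse oocytes, spanned 7.50 to 9.37 in Parg(110)-/+ embryos (median 8.25) and 7.43 to 9.41 in WT embryos (median 8.25). Its mean was 9.11 in the family of PargA, 8.39 in that of PargB and 7.99 in that of PargC, against 8.07, 9.00 and 8.04 in those of WT1, WT2 and WT3. The family means were spread within both genotypes. Its genotype difference was 0.12 with an interval of -0.51 to 0.75.

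Cdc25c, the third phosphatase, had a median of 10.65 in Parg(110)-/+ embryos (9.63 to 11.12) and 10.45 in WT embryos (9.97 to 10.92). The lowest value belonged to PargC-1, which lay apart from the other 8 Parg(110)-/+ embryos. The difference between the genotypes was 0.07, within an interval of -0.29 to 0.44.

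Of the inhibitory kinases, Wee1 had lowest, median and highest levels of 7.59, 8.22 and 8.83 in Parg(110)-/+ embryos and 8.21, 8.40 and 8.88 in WT embryos. Below the WT mean lay 8 of 9 Parg(110)-/+ embryos, and 4 lay below the lowest WT embryo; PargB-1, at 8.83, was the exception. The difference was -0.35 with a standard error of 0.14 and an interval of -0.65 to -0.05, or 0.786-fold, with an adjusted p of 0.441 and an unadjusted p of 0.0267.

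Wee2, the kinase that keeps oocytes arrested, ran at 11.79, 12.02 and 12.46 in Parg(110)-/+ embryos and at 11.50, 12.02 and 12.39 in WT embryos. The medians were the same to the second decimal. Its difference was 0.12 with an interval of -0.14 to 0.38, and its sign was positive in all 30 alternatives. The lowest WT embryos, WT3-1 at 11.50, WT1-3 at 11.52 and WT2-3 at 11.66, lay below every Parg(110)-/+ embryo.

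**Figure D2:**
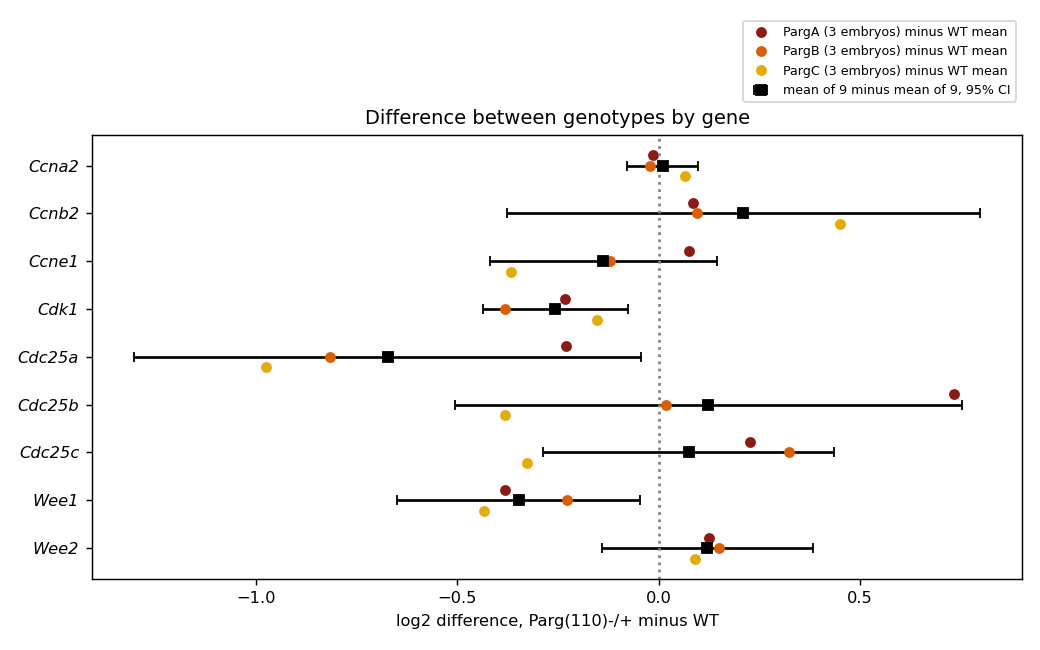
Log2 difference between Parg(110)-/+ and WT embryos for each gene; squares give the difference of the means of 9 embryos with the 95% interval from limma, and coloured points the mean of each father's 3 embryos minus the WT mean. The intervals of Cdk1, Cdc25a and Wee1 lie below 0, though no adjusted p is under 0.1, and for these 3 genes every family mean is below the WT mean.

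The direction of Cdk1, Cdc25a and Wee1 held in all 30 alternatives, with differences of -0.31 to -0.19 for Cdk1, -0.90 to -0.52 for Cdc25a and -0.43 to -0.28 for Wee1. The unadjusted p stayed under 0.05 in 28 of 30 for Cdk1, 23 for Wee1 and 17 for Cdc25a. These genes had been picked by their unadjusted p in the same embryos, and most alternatives only left out an embryo or a family. The counts are therefore no replication. Ccne1 (-0.24 to -0.02) and Wee2 (0.06 to 0.20) also kept their sign in all 30, with an unadjusted p under 0.05 in 0 of 30. A kept sign thus did not set Cdk1, Cdc25a and Wee1 apart. No alternative brought any member under an adjusted p of 0.1, and the smallest reached was 0.315, for Cdk1. With the mean of each father as the unit, 3 against 3, the order changed. The unadjusted p in limma was then 0.0092 for Wee1, 0.0166 for Cdc25a and 0.0377 for Cdk1, each at an adjusted p of 0.642.

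The study listed genes for each father, and each Parg(110)-/- family was therefore set against the 9 WT embryos. In limma, 0 of 27 tests of the members passed an adjusted p under 0.1. Over all probe sets the shares were 0% for PargA, 0.0139% for PargB and 0.0104% for PargC. The smallest adjusted p was that of Cdk1 in the family of PargB, at a difference of -0.38 with a standard error of 0.12 (adjusted p = 0.261). The next was Cdc25a in the family of PargB, at -0.82 (adjusted p = 0.428), while the lowest difference of Cdc25a was in the family of PargC, at -0.97 (adjusted p = 0.644). These comparisons share the same 9 WT embryos.

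Fathers within a genotype were compared with limma's F test, and 0 of 18 tests of the members passed. The share over all probe sets was 0.00347% in Parg(110)-/+ embryos and 0% in WT embryos. Cdc25b among Parg(110)-/+ families had the only unadjusted p under 0.05, at 0.0447, with an adjusted p of 0.929.

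Each Parg(110)-/+ embryo was also set against the 9 WT embryos, with the spread taken from the WT embryos and the lone embryo assumed to vary like them. None of these 81 tests of a member passed an adjusted p under 0.1, beside 0.865% of all tests over all probe sets. PargB-1 stood apart in these tests, with 625 probe sets called, against 174 to 243 in the other 8 Parg(110)-/+ embryos and 138 to 330 in single WT embryos compared in the same way, and the share without it was 0.701%. An unadjusted p under 0.05 was found in 11 of the 81, all with a lower level in the Parg(110)-/+ embryo, beside 7.22% of all tests over all probe sets in either direction and 1.77% with a lower level. The 11 tests are not independent, since they share the WT embryos and fall on 5 genes in 5 embryos. In PargC-1 this held for Cdc25a at -1.83, Wee1 at -0.92, Cdc25c at -0.93 and Ccne1 at -0.60 from the WT mean. In PargB-1 it held for Cdk1 at -0.53 and Ccne1 at -0.66, and the remaining 5 were Cdc25a in PargA-2, PargB-2 and PargB-3 and Wee1 and Cdk1 in PargB-3.

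The same comparison of every single WT embryo with the remaining 8 gave the background, in which 0.731% of all tests passed. An unadjusted p under 0.05 was found in 4 of 81 tests of a member, 3 of them with a lower level in the single WT embryo, beside 5.81% of all tests in either direction and 1.97% with a lower level. A member passed in 1 of 81 tests: Ccne1 was lower in WT2-1 by a difference of -0.71 with a standard error of 0.12 (limma, adjusted p = 0.0503). This embryo also held more of the oocyte transcripts Mos, Ooep and Khdc3, at 1.75, 1.60 and 1.56 above the other 8 (adjusted p = 0.00513, 0.0802 and 0.0316), and its part in the result was not tested. With WT2-1 left out of the WT embryos, Ccne1 passed in 2 Parg(110)-/+ embryos, PargB-1 at -0.74 (adjusted p = 0.0248) and PargC-1 at -0.67 (adjusted p = 0.0808). The low level of Ccne1 was therefore seen in 3 embryos of both genotypes, and whether it was called in Parg(110)-/+ embryos turned on WT2-1.

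Transcripts of the members were next compared across embryos. Of 36 pairs, 1 passed a Benjamini-Hochberg adjusted p under 0.1 over the 36, and 3 had an unadjusted p under 0.05. Embryos with more Wee2 held less Ccna2: Pearson's r was -0.70 (permutation p = 0.00123, adjusted p = 0.0443) and Spearman's rho was -0.78 (permutation p = 0.00023, adjusted p = 0.00828). Within Parg(110)-/+ embryos alone r was -0.84, and within WT embryos alone it was -0.74 (exact permutation p = 0.0024 and 0.019, adjusted p = 0.086 and 0.664). Without PargB-1 and PargC-1, the embryos farthest from the median of Ccna2, r was -0.71 (permutation p = 0.0021, adjusted p = 0.0749). The relation weakened with the scaling of the arrays, to -0.47 after setting the array medians equal (adjusted p = 0.668) and -0.44 once the values were quantile normalized again (adjusted p = 0.445), and Ccna2 spanned only 0.34 on the log2 scale over all embryos.

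Cdc25a and Wee1 gave the next pair, with r = 0.62 (permutation p = 0.0057, adjusted p = 0.103) but rho = 0.37 (permutation p = 0.131). Without PargA-2 and PargC-1, the embryos farthest from the median of Cdc25a, r was 0.43 (permutation p = 0.0931). Leaving out the farthest embryos also narrows the range and can lower r, so their part in the relation cannot be read from this. Within a genotype r was 0.58 in Parg(110)-/+ embryos and 0.34 in WT embryos. Ccna2 and Wee1 had r = -0.52 (adjusted p = 0.332), which was 0.15 in WT embryos alone.

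The embryos were collected at the 2-cell stage with no finer time, so the mean level of 16 oocyte genes and of 9 genes transiently expressed in 2-cell embryos was set beside the members in 18 relations. The oocyte mean lay between 9.89 and 10.54 in Parg(110)-/+ embryos and between 10.04 and 10.65 in WT embryos, and the 2-cell mean lay between 8.19 and 9.97 in Parg(110)-/+ embryos and between 8.24 and 9.49 in WT embryos. PargB-1 was the highest Parg(110)-/+ embryo and WT2-1 the highest WT embryo in both. The 9 2-cell genes were Zfp352, Tcstv3 and members of the Usp17l and Tdpoz families, and no Zscan4 gene was measured. Usp17la averaged below the olfactory level, but lay 3.08 above the WT mean in PargB-1 and 3.52 in PargC-3. Against the other 8 WT embryos, Usp17lc was at 2.53 in WT2-2 and Tdpoz1 at -1.32 in WT2-3. The relations without Usp17la were not tested. At an adjusted p under 0.1, 5 relations passed with all 18 embryos, and 0 passed without PargB-1 and WT2-1. No call was thus kept without those embryos, the farthest from the median of both means. Leaving them out also narrows the range and can lower r, so their part in the relations cannot be read from this.

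Wee2 followed both means, with r = 0.66 for the 2-cell genes (permutation p = 0.00296, adjusted p = 0.0385; rho = 0.62, permutation p = 0.00736) and 0.60 for the oocyte genes (permutation p = 0.00834, adjusted p = 0.05; rho = 0.65, permutation p = 0.00385). Without PargB-1 and WT2-1 these were 0.53 (permutation p = 0.0352, adjusted p = 0.454) and 0.49 (permutation p = 0.0508, adjusted p = 0.454). For the 2-cell genes, r was 0.73 in Parg(110)-/+ embryos alone and 0.66 in WT embryos alone.

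Cdc25b followed the oocyte mean, with r = 0.62 (permutation p = 0.00428, adjusted p = 0.0385; rho = 0.58, permutation p = 0.0133), and r was 0.46 without PargB-1 and WT2-1 (permutation p = 0.076). Within a genotype r was 0.55 in Parg(110)-/+ embryos and 0.68 in WT embryos.

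Ccne1 ran against the oocyte mean, with r = -0.58 (permutation p = 0.0134, adjusted p = 0.0603) but rho = -0.30 (permutation p = 0.234), and r was -0.06 without PargB-1 and WT2-1. Ccna2 ran against the 2-cell mean, with r = -0.54 (permutation p = 0.0205, adjusted p = 0.0738; rho = -0.53, permutation p = 0.0265), and r was -0.34 without those embryos. After setting the array medians equal, both missed the threshold. In WT embryos alone the only call was Ccne1 against the 2-cell mean, at r = -0.81 (exact permutation p = 0.000642, adjusted p = 0.0116; rho = -0.87), a relation that missed the threshold over all 18 embryos (r = -0.48, adjusted p = 0.114). In Parg(110)-/+ embryos alone its r was -0.29 (exact permutation p = 0.457), and the difference between the genotypes was not tested. Over both genotypes without PargB-1 and WT2-1, the r of Ccne1 with the 2-cell mean was -0.002 (permutation p = 0.996). WT2-1 was the WT embryo with the lowest Ccne1 and the highest 2-cell mean, and WT embryos alone without it were not tested.

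**Figure D3:**
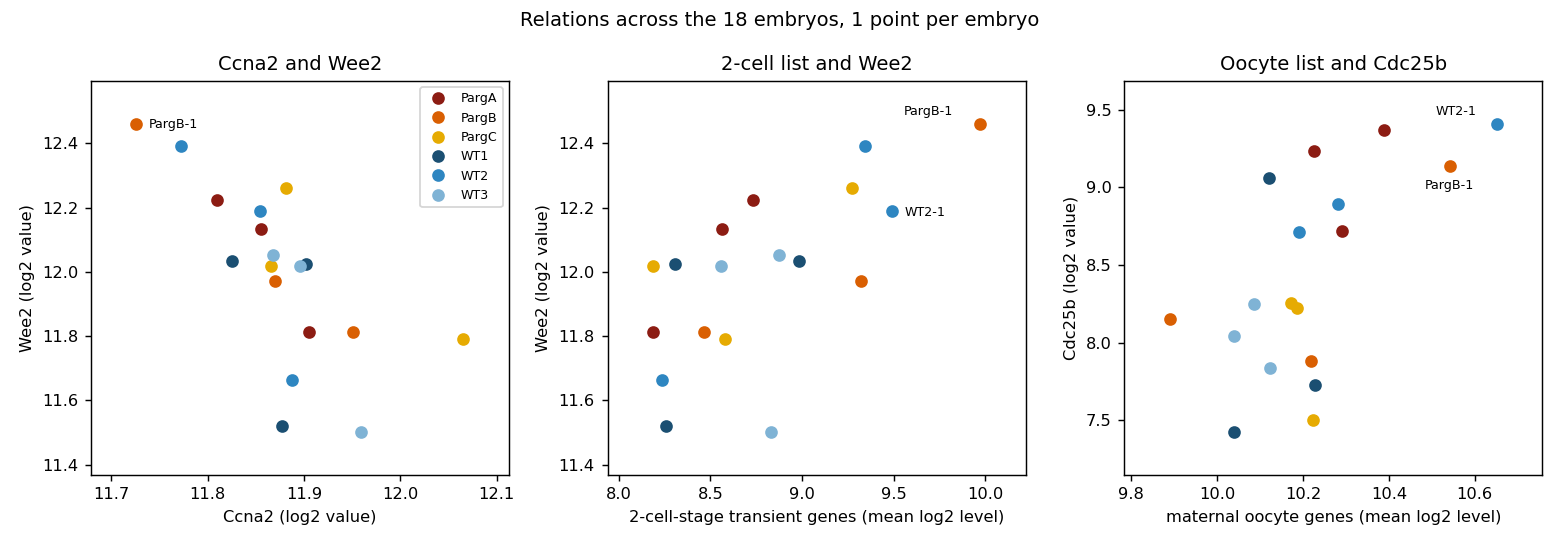
Each point is 1 of 18 embryos, coloured by father; the panels set Wee2 against Ccna2, Wee2 against the mean log2 level of 9 2-cell genes, and Cdc25b against the mean log2 level of 16 oocyte genes. Wee2 runs against Ccna2 (r = -0.70) and with the 2-cell mean (r = 0.66), where PargB-1 lies at the upper end.

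The rest of the Cdk1 network was described through 54 genes listed by role, of which 53 were measured. Between the genotypes 0 of 53 passed an adjusted p under 0.1 (limma), with 24 higher and 29 lower in Parg(110)-/+ embryos and a median difference of -0.01, against 0.05 over all probe sets. An unadjusted p under 0.05 was found for 3 lower genes and 1 higher gene. Over all probe sets, 67.1% had a higher mean in Parg(110)-/+ embryos, and 58.6% among the bright ones. By role, 4 of 9 other cyclins, 4 of 7 kinases and partners, 6 of 7 genes of Cdk-inhibiting proteins, 1 of 5 genes of the phosphatase branch, 3 of 8 genes of protein destruction, 3 of 10 promoter factors, 1 of 2 checkpoint kinases, 1 of 3 mitotic kinases acting on Cdc25 and Wee1, and 1 of 2 genes of oocyte arrest had a higher mean in Parg(110)-/+ embryos.

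The smallest p belonged to Nfya, the DNA-binding NF-Y subunit that recognises CCAAT. Its mean was 8.78 ± 0.52 in Parg(110)-/+ embryos and 9.57 ± 0.37 in WT embryos (SD, n = 9 each), a difference of -0.80 with a standard error of 0.21 (adjusted p = 0.362), with 8 of 9 Parg(110)-/+ embryos below the WT mean. Ccnf, cyclin F, which directs proteins to degradation, averaged 8.37 ± 0.47 in Parg(110)-/+ embryos and 9.10 ± 0.40 in WT embryos (SD, n = 9 each), a difference of -0.72 (adjusted p = 0.362). E2f1, a factor that binds E2F letters, averaged 10.19 ± 0.15 in Parg(110)-/+ embryos and 10.44 ± 0.22 in WT embryos (SD, n = 9 each), a difference of -0.25 (adjusted p = 0.381), and was below the WT mean in 9 of 9 embryos. None of these passed the threshold. Of the 10 promoter factors, 3 had a higher mean in Parg(110)-/+ embryos: Nfyc by 0.24, E2f4 by 0.15 and Foxm1 by 0.10. Nfyb, another NF-Y subunit, was at -0.25. A relation between the levels of the promoter factors and the letters in the Cdk1 and Cdc25a windows was not tested.

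The only higher gene with an unadjusted p under 0.05 was Cks1b, which encodes a small Cdk-binding protein, at 11.89 ± 0.29 in Parg(110)-/+ embryos and 11.38 ± 0.51 in WT embryos (SD, n = 9 each; difference 0.51, adjusted p = 0.404). In single Parg(110)-/+ embryos, Cdc20, the activator of the anaphase-promoting complex, was lower in PargB-1 by -0.96 (adjusted p = 0.0148), and Nfya was lower in PargC-3 by -1.83 (adjusted p = 0.0819). Single WT embryos passed for Nfyb in WT1-3 at -1.02, Mos, Cdkn2c and Cdkn2d in WT2-1 at 1.75, 2.70 and 1.21, and Cdk2 and Chek1 in WT3-1 at 1.69 and -0.99. Calls in single embryos were therefore found in both genotypes.

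**Figure D4:**
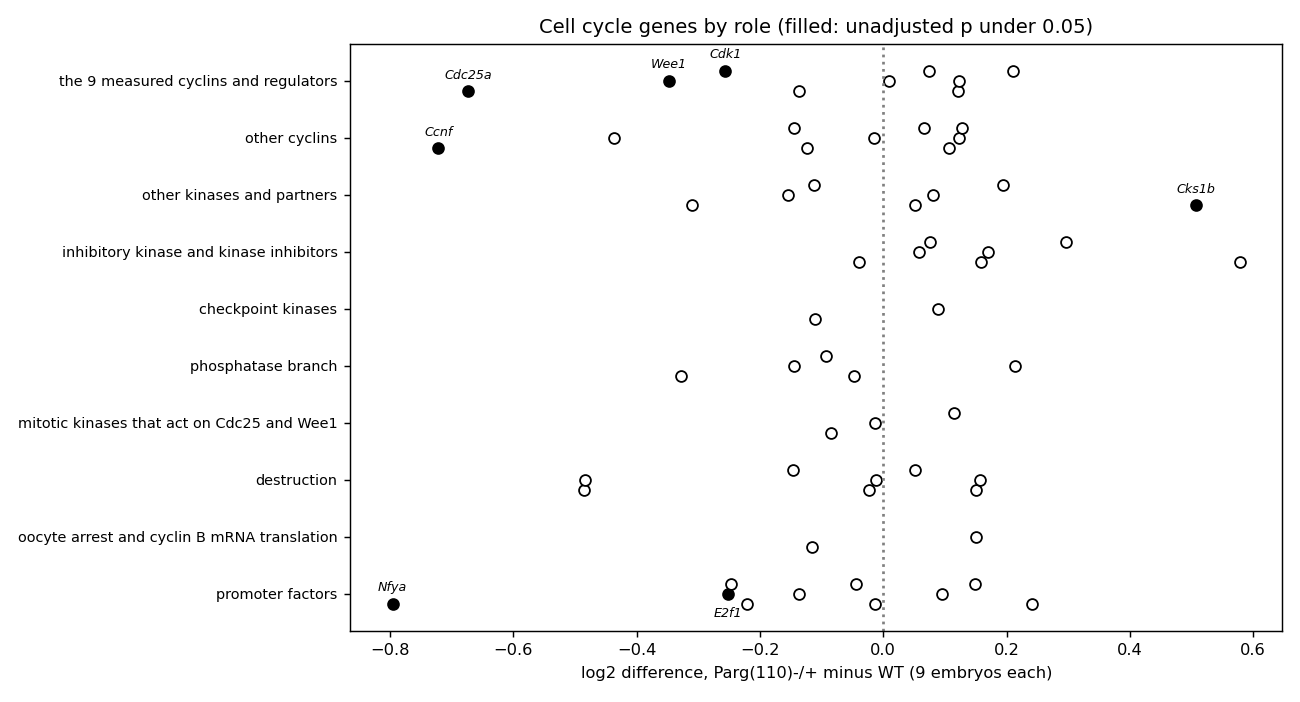
Log2 difference between Parg(110)-/+ and WT embryos (9 each) for the 9 measured members and 53 further cell cycle genes grouped by role; each point is 1 gene, and filled points have an unadjusted p under 0.05. The filled points are Cdc25a, Wee1, Cdk1, Ccnf, Nfya and E2f1 below 0 and Cks1b above 0, and none passed an adjusted p under 0.1.

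Markers of other cells were read beside these levels. The mean of 15 cumulus, granulosa and oviduct genes lay between 6.35 and 6.63 in Parg(110)-/+ embryos and between 6.25 and 6.50 in WT embryos, and 5 of the 15 (Inhba, Krt8, Epcam, Col1a1 and Col1a2) lay above the olfactory level. Of the 15, 13 had a higher mean in Parg(110)-/+ embryos, 4 of them at an unadjusted p under 0.05, with a median difference of 0.12, against 0.05 over all probe sets, and 0 passed an adjusted p under 0.1. Amh, Fshr and Foxl2, which define granulosa cells, averaged 6.20, 6.06 and 6.31 in Parg(110)-/+ embryos and 6.08, 6.00 and 6.19 in WT embryos, all below it, while Inhba averaged 6.86 in Parg(110)-/+ embryos and 6.43 in WT embryos, with 9 of 9 Parg(110)-/+ embryos above the WT mean. For 8 blood genes the mean lay between 5.51 and 5.66 in Parg(110)-/+ embryos and between 5.34 and 5.60 in WT embryos, with 1 above that level, and for 8 spermatid genes between 5.75 and 5.95 in Parg(110)-/+ embryos and between 5.58 and 5.99 in WT embryos, with 3 above it. All 8 blood genes and all 8 spermatid genes had a higher mean in Parg(110)-/+ embryos, with median differences of 0.10 and 0.07. In each list, 1 gene had an unadjusted p under 0.05. Most probe sets leaned the same way: 67.1% of all had a higher mean in Parg(110)-/+ embryos, and 8.96% were higher at an unadjusted p under 0.05 (limma). In single Parg(110)-/+ embryos, Krt8 was higher in PargB-1 by 2.25 (adjusted p = 0.000195), Krt18 in PargB-2 by 2.51 (adjusted p = 0.000513), Inhba in PargA-2 by 1.99 (adjusted p = 3.59e-06) and in PargB-2 by 0.78 (adjusted p = 0.00472), and Ptx3 in PargB-3 by 0.61 (adjusted p = 0.0423). In single WT embryos, Prm2, a protamine of spermatids, was higher in WT1-3 by 1.34 (adjusted p = 0.0087). Their part in the levels of the cyclins and regulators was not tested.

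The genes whose levels followed each member most closely were named by Pearson's r over the 18 embryos after subtracting genotype means, among 10263 bright genes, as a description. Ccna2 was nearest to Ppia, Snord22 and Igf2r (r = 0.87, 0.87 and 0.86). Wee2 was nearest to Cyth3, Mphosph6 and Usp15 (r = 0.89, 0.89 and 0.86). These were the closest matches of any member.

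For Ccnb2 the nearest were Polm, Txndc17 and Eid2 (r = 0.77, 0.77 and 0.76). For Ccne1 they were Ring1, Mir375 and Mt2 (r = 0.78, 0.77 and 0.76). For Cdk1 they were Brd1, Srcap and Garnl3 (r = 0.76, 0.75 and 0.74), of which Srcap encodes a chromatin remodeller. Wee1 lay nearest to Yeats4, Fxr2 and Mfsd2a (r = 0.79, 0.78 and 0.76). No member was among the 3 nearest genes of another.

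Of the phosphatases, Cdc25a lay nearest to Dcaf4, H3f3a and 4833420G17Rik (r = 0.81, 0.71 and 0.69). Cdc25b lay nearest to Eef1a1, Npm2 and Pbx2 (r = 0.79, 0.78 and 0.77), of which Npm2 is itself 1 of the oocyte genes used above. Cdc25c lay nearest to Hsp90aa1, Pikfyve and Dicer1 (r = 0.79, 0.74 and 0.74). With 10263 genes compared, even the third nearest gene had r between 0.69 and 0.86 for every member.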

How the data were processed

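Each of 18 single 2-cell embryos was read on 1 array. The deposited log2 values were made by the authors with RMA (background correction, quantile normalization, summarization to probe sets) in Partek; versions are not given in the sources used here. RMA compresses dim probe sets, and quantile normalization can reduce a change shared by most genes. Names were taken from the platform annotation where it gives 1 gene (21780 of 28815 probe sets; 1605 had several and 5430 were not listed), and 0 symbols changed when updated. The arrays' values all differed.

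All 28815 probe sets were fitted with limma 3.58.1 in R 4.3.3 (two-sided, Benjamini-Hochberg), after tests on simulated data. The genotype fit left out the father, who entered as a random block in an alternative (consensus correlation -0.023). Other alternatives changed the scaling, the test, the filter on dim probe sets and the embryos. Correlations used two-sided permutations (100000 resamples; exact for 9 embryos). The p-values measure the spread between embryos of 6 fathers, and the number of arrays limits the precision.

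The members and all lists were chosen with earlier results of these data known. All members are named, with the 3 pathway genes of smallest p, those past the test, and the 3 genes nearest each member; the marker genes of other cells given by value were chosen after their values were seen, as was Cks1b. Ccnb1 had no value. Of the lists, 53 of 54 pathway, 16 of 16 oocyte, 9 of 16 2-cell, 15 of 17 cumulus, granulosa and oviduct, 8 of 10 blood and 8 of 8 spermatid genes were measured.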

Additional observations from a re-analysis of the deposited data

Results flagged for a closer look

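In 18 sets of 9 embryos (9 genes in each genotype), 2 lowest values were set apart by a gap that was large for the range of their group, where chance gives about 1 in 20. Ccne1 in WT2-1, at 10.85, was separated from the nearest WT embryo by 0.661 of the range of the WT embryos. Cdc25c in PargC-1, at 9.63, was separated from the nearest Parg(110)-/+ embryo by 0.524 of the range of that group.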

How the results depend on the processing

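No member passed the genotype or family test under any alternative run, and the mean of several probe sets per gene was not run because each member had 1. Over all probe sets, leaving out 1 embryo gave 0 to 1 genotype calls and leaving out the embryos of WT1 gave 3, against 0. Leaving out 1 WT embryo gave 0 to 2 single-embryo calls among the members. The 1 call among member pairs became 0 after equal array medians, 0 after a second quantile normalization and 0 in WT embryos alone. Of relations with stage lists, 5 were called, against 3 (all among the 5) after equal array medians, 9 (all 5 among them) after subtracting genotype means, chosen after seeing the data, 0 in Parg(110)-/+ embryos alone, 1 in WT embryos alone (Ccne1 with the 2-cell genes, not among the 5) and 0 without the 2 farthest embryos; 9 embryos give less precision than 18, and other causes were not tested.

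Differences that were small changed sign, and none of these were called. Ccna2 (0.01) was -0.0462 after equal array medians, -0.0129 to 0.0295 when 1 embryo was left out (below 0 without WT2-2, at -0.00227, and without PargC-1), -0.00647 without the embryos of WT2 and -0.0181 without those of PargC. Ccnb2 (0.21) was -0.12 without the embryos of WT3. Cdc25b (0.12) was -0.027 without those of WT1, -0.0415 without those of WT3 and -0.182 without those of PargA. Cdc25c (0.07) was -0.0103 without those of WT2, -0.0016 without those of PargA and -0.0500 without those of PargB. The r of Ccna2 and Wee1 (-0.52) was 0.15 in WT embryos alone.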
